A study of Mus musculus with 22 samples.

Results

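DNA replication and S phase genes were followed in the lungs of mice given the multiwalled carbon nanotube Mitsui7. The group comprised 45 genes, taken from a list of the replication machinery and of the genes that switch it on. Each gene was read from its brightest probe among those that carry its RefSeq accession, out of 20018 genes that could be named in this way. Of the 45 genes, 42 were expressed above background, and Ccne2, Brca1 and Clspn were not.

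The samples were right lungs of female C57BL/6 mice, 8 weeks of age at the start, collected 24 hours after 1 intratracheal instillation. There were 5 controls given vehicle alone, a saline solution with lavage fluid that every treated mouse also received. The treated groups held 6 mice at 18 µg, 5 mice at 54 µg and 6 mice at 162 µg of Mitsui7, and the study planned 6 mice in every group. Each array carried Cy5-labelled RNA from 1 lung against a Cy3-labelled universal reference, made from 11 cell lines of the mouse, without dye swaps. Each value below is therefore a log2 ratio of lung to reference for 1 gene, and a fold change is a difference between such ratios. Whole lung was measured, so fewer cells of a type and less RNA per cell cannot be told apart. The defining lung genes Sftpc, Sftpb, Sftpa1, Scgb1a1, Ager and Cldn18 all had ratios far above 0 in controls, from 2.45 for Cldn18 to 8.49 for Scgb1a1.

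Cells copy their DNA once per division, in S phase. In G1 the origin recognition complex, Cdc6 and Cdt1 load the Mcm2-7 helicase onto DNA. Cyclin E and E2F transcription factors then start S phase, and Cdc45 and the GINS complex turn the helicase on. DNA polymerases held by the sliding clamp Pcna copy both strands, ribonucleotide reductase and thymidine enzymes supply the nucleotides, and chromatin and its methylation are restored behind the fork. In adult lung few cells divide at any time, and many of these genes are known targets of E2F.

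The promoters of these genes were examined for letters that resemble an E2F site, because E2F is the known regulator of the group. RefSeq promoters of mouse build GRCm38.p6 were used, 300 bases around each start, and 39 of the 45 genes had at least 1. Mcm4, Gins1, Gins2, Pole, Ccne2 and Exo1 had none in the table. The letters TTTCGCGC, TTTGGCGC, TTTCCCGC or TTTGCCGC were found on either strand in 16 of the 39 genes (41%), against 2.6% of all 27025 genes in the table. CCAAT stood in 64.1% of the genes and 41.1% of all, GGGCGG in 71.8% and 38.2%, and TTTGAA in 15.4% and 20.2%. Matches on opposite strands, and the E2F-like and GGGCGG letters, may share bases. A match describes the letters and does not show that a factor binds.

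Below are the 250 bases before the start of 5 genes, 5′ to 3′ on the strand of the gene, with the E2F-like letters in capitals. Mcm6 and Uhrf1 are shown as the members called higher at 18 µg that had a match, Mcm5 for its overlapping pair, and Mcm2 and Rrm2 as called members without a match. Mcm6 lies at chr1:128359706-128359955 on the minus strand and Mcm5 at chr8:75109259-75109508 on the plus strand. The second of the Uhrf1 promoters lies at chr17:56304063-56304312 on the plus strand, Mcm2 at chr6:88898781-88899030 on the minus strand and Rrm2 at chr12:24708004-24708253 on the plus strand.
Mcm6: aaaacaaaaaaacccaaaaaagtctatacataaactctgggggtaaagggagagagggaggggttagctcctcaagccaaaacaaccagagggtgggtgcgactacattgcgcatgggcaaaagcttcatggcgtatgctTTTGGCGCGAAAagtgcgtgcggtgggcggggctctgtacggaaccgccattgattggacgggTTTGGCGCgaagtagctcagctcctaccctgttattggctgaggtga
Mcm5: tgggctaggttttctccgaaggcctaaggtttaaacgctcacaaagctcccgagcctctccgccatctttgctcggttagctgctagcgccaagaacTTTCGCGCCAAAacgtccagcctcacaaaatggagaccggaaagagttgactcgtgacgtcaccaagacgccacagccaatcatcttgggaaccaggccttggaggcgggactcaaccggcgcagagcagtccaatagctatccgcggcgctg
Uhrf1: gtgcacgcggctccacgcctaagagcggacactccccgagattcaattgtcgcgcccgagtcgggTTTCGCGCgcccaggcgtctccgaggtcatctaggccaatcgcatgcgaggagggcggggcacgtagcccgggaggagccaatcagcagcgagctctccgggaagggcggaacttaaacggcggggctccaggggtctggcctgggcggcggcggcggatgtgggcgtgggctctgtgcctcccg
Mcm2: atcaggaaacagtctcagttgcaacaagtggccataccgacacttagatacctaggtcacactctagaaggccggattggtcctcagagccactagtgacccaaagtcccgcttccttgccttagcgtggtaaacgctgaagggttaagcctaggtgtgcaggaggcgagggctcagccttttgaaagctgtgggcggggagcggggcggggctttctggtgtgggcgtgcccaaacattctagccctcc
Rrm2: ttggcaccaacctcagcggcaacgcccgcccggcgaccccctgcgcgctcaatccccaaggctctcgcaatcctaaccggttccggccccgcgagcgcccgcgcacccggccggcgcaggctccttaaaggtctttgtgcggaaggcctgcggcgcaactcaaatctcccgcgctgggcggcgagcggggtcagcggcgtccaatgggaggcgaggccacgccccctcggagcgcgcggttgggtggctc

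Mcm6 held 3 matches, of which the first pair shared bases on opposite strands, and the Mcm5 pair overlapped in the same way. The search covered 50 bases after the start as well, which are not printed. Of the 9 members called higher at 18 µg that had a promoter, 2 held a match, and of the 30 others 14 did. The median log2 fold change at 18 µg was 0.43 over the 16 genes with a match and 0.48 over the 23 without.

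In control lungs the ratio to the reference was below 0 for 44 of the 45 genes, with a median of -2.31, and it was below -2 for 28 of them. Of all named genes 2.64% had a ratio below -2. The exception was E2f2, an activator of the E2F family, at 0.87 ± 0.28 (SD, n = 5). Rrm2, the small subunit of ribonucleotide reductase, had a control ratio of -4.46 ± 0.46 (SD, n = 5), and Uhrf1, which brings maintenance methylation to new DNA, of -4.20 ± 0.44 (SD, n = 5). Dyes were not swapped, so the level of a ratio is open to dye bias. A bias equal on every array would cancel in differences between groups, but one that varied between arrays would not.

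At 18 µg, the lowest dose, 12 of the 45 genes were called higher than in controls and 0 lower. A call required an adjusted p of at most 0.05 in limma, a change of at least 1.5-fold and expression above background. Over all named genes 0.52% were called higher and 1.18% lower at this dose. The called genes were Mcm2, Mcm6, Mcm10, Gins1, Gins2, Rfc4, Fen1, Rrm2, Uhrf1, E2f8, Ccne1 and Exo1. The fold change was above 0 for 44 of the 45 genes after loess normalization, for 35 when arrays were only centred on their median and for 21 without normalization. The median over the 45 genes was 0.48 on the log2 scale, against -0.02 over all expressed genes. With median centring these medians were 0.09 and -0.26, and without normalization -0.07 and -0.42. Relative to all expressed genes the 45 genes thus lay 0.50 higher as reported, and 0.35 higher with median centring and without normalization.

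**Figure D1:**
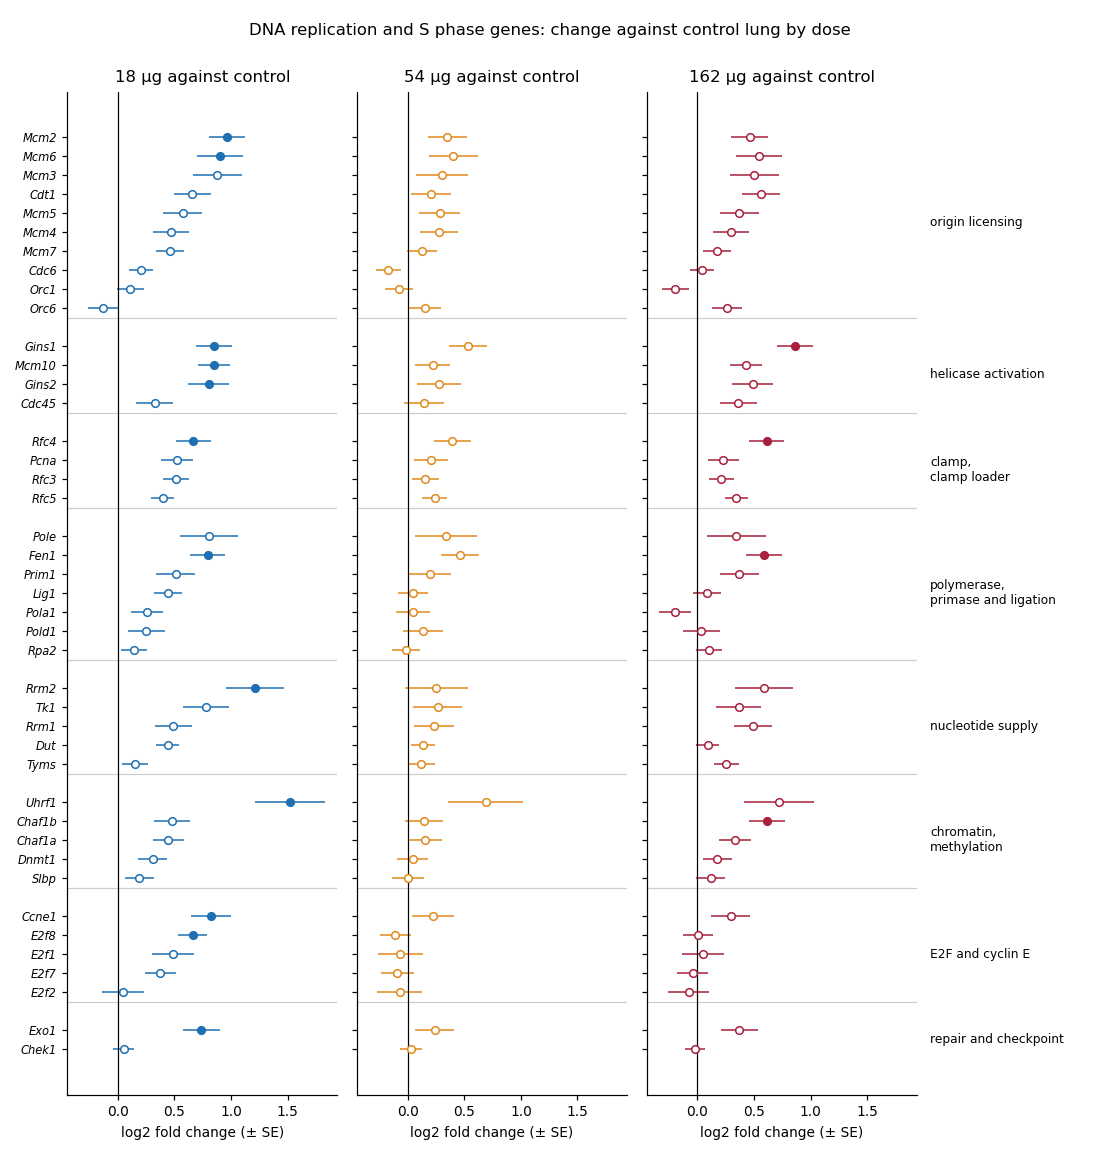
Log2 fold change against control, with its standard error, of the 42 expressed DNA replication and S phase genes at 18, 54 and 162 µg Mitsui7, grouped by role; filled points are called genes. At 18 µg 12 genes are filled and 41 estimates lie above 0 (without normalization 21 of all 45 genes do), at 54 µg none is filled, and at 162 µg 4 are.

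Genes that load the helicase, a step of G1, are given first. Mcm2, a subunit of the Mcm2-7 ring, had log2 ratios of -3.08, -3.27, -2.60, -2.50 and -2.63 in the 5 controls. At 18 µg its ratios ran from -2.46 to -1.12 with a median of -1.82, so that every treated mouse lay above every control. The log2 fold change of Mcm2 was 0.96 (1.95-fold, standard error 0.16, adjusted p = 0.0132). At 54 µg the ratios were -2.58, -2.29, -2.50, -2.40 and -2.22, and at 162 µg they ran from -2.74 to -1.67 with a median of -2.36, overlapping the controls at both doses. Mcm6, another subunit, had control ratios of -2.34, -2.31, -1.66, -2.66 and -2.58 and ran from -2.49 to -0.77 with a median of -1.75 at 18 µg. Only 2 of the 6 mice at 18 µg lay above every control, and the fold change with slide in the model was 0.90 (1.87-fold, standard error 0.20, adjusted p = 0.0371). At 54 µg the ratios of Mcm6 were -1.69, -1.81, -2.68, -2.41 and -2.17 and at 162 µg they ran from -2.45 to -1.25 with a median of -2.05, with 0 and 1 mice above every control. On the 4 slides that held both groups, Mcm6 was higher in the mouse given 18 µg by 0.49 to 1.89. The other ring subunits Mcm3, Mcm4, Mcm5 and Mcm7 had fold changes of 0.88, 0.47, 0.57 and 0.46 on the log2 scale, and none was called. Cdt1, which brings the ring to origins, had 0.66 (standard error 0.17, adjusted p = 0.0572). Its control ratios were -3.58, -3.67, -3.23, -3.58 and -3.77, and the ratios ran from -3.74 to -2.46 with a median of -3.14 at 18 µg, where 3 of 6 mice lay above every control. At 54 µg Cdt1 had -3.13, -3.25, -4.06, -3.50 and -3.55, and at 162 µg it ran from -3.43 to -2.90 with a median of -3.14, overlapping the controls at both doses. Cdc6, its loading partner, had 0.20 (standard error 0.11, adjusted p = 0.39), with control ratios of -1.82, -2.52, -2.54, -1.95 and -2.09 and ratios at 18 µg from -2.12 to -1.37 with a median of -1.56. This Cdc6 probe was well above background in 2 of 5 controls and 3 of 6 mice at 18 µg. A second expressed probe of Cdc6 gave 0.41 (adjusted p = 0.157). At 54 µg Cdc6 had -1.86, -2.76, -1.73, -2.17 and -1.6, and at 162 µg it ran from -2.62 to -1.12 with a median of -2.15, so that each group overlapped the controls. For Orc1 and Orc6, subunits of the origin recognition complex, the fold changes were 0.11 and -0.13, and Orc6 was the 1 member whose estimate lay below 0.

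Of the 4 genes that activate the helicase 3 were called. Mcm10, which joins the helicase to the polymerases, had control ratios of -3.09, -3.02, -2.80, -2.96 and -2.84, a narrow range. At 18 µg the ratios of Mcm10 ran from -2.56 to -1.56 with a median of -2.01, all above the controls, with a log2 fold change of 0.85 (1.8-fold, standard error 0.14, adjusted p = 0.0137). At 54 µg Mcm10 had -2.73, -2.92, -2.56, -2.63 and -2.60, of which 4 lay above the controls, and at 162 µg it ran from -2.71 to -2.03 with a median of -2.58, again all above the controls. Gins1, a subunit of GINS, had -3.18, -3.83, -3.02, -3.10 and -3.50 in controls and ran from -3.03 to -2.11 with a median of -2.41 at 18 µg, where 5 of 6 mice lay above every control. Its fold change was 0.85 (1.8-fold, standard error 0.16, adjusted p = 0.019). Gins2, its partner in the same complex, had -3.71, -3.39, -3.36, -3.26 and -3.29 in controls and ran from -2.92 to -1.71 with a median of -2.66 at 18 µg, again with no overlap. The log2 fold change of Gins2 was 0.80 (1.75-fold, standard error 0.18, adjusted p = 0.0381). At 54 µg Gins2 had -3.22, -3.33, -3.07, -3.09 and -3.18 and at 162 µg it ran from -3.56 to -2.22 with a median of -2.96, with 1 mouse of each group among the controls. Cdc45, the third part of the active helicase, had 0.32 (standard error 0.16, adjusted p = 0.369).

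Among the clamp and its loader, Rfc4 was called. Rfc4, a subunit of the clamp loader, had control ratios of -2.85, -3.25, -2.46, -2.66 and -2.82, and at 18 µg it ran from -2.80 to -1.66 with a median of -2.10, with 4 of 6 mice above every control. The fold change of Rfc4 was 0.66 (1.58-fold, standard error 0.15, adjusted p = 0.0428), and its second probe gave 0.54 (adjusted p = 0.0456), under 1.5-fold. At 54 µg Rfc4 had -2.41, -2.36, -2.56, -2.71 and -2.21, of which 3 lay above the controls. Rfc3, a sister subunit, passed the adjusted p with 0.51 (standard error 0.11, adjusted p = 0.0357) but stayed under 1.5-fold. Its ratios were -1.90, -2.20, -2.27, -2.05 and -2.02 in controls, ran from -2.05 to -1.16 with a median of -1.36 at 18 µg, were -1.85, -2.0, -1.70, -1.80 and -1.58 at 54 µg and ran from -2.13 to -1.37 with a median of -1.83 at 162 µg. Of these mice 5 of 6, 4 of 5 and 4 of 6 lay above every control. Rfc5 had 0.39 (standard error 0.10, adjusted p = 0.0591), with -2.78, -2.98, -2.57, -2.80 and -2.80 in controls, -2.53, -2.44, -2.57, -2.64 and -2.46 at 54 µg, and ranges from -2.70 to -2.05 with a median of -2.38 at 18 µg and from -2.55 to -2.27 with a median of -2.44 at 162 µg. Only at 162 µg did every mouse lie above the controls for Rfc5. Pcna, the clamp itself, had -1.98, -1.90, -1.46, -1.68 and -1.77 in controls and ran from -1.73 to -0.57 with a median of -1.26 at 18 µg, with 4 of 6 mice above every control. The estimate for Pcna was 0.52 (standard error 0.14, adjusted p = 0.068), and it was not called at any dose. At 54 µg Pcna had -1.79, -1.53, -1.46, -1.84 and -1.41 and at 162 µg it ran from -1.76 to -1.02 with a median of -1.63, with 2 mice of each group above the controls.

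Fen1, the nuclease that trims Okazaki fragments, was the 1 gene called among polymerases, primase and ligase. Its control ratios were -2.78, -2.49, -2.36, -2.64 and -2.96, and at 18 µg they ran from -2.68 to -1.35 with a median of -1.86. The lowest mouse at 18 µg lay among the controls and the other 5 lay above them, with a fold change of 0.79 (1.73-fold, standard error 0.16, adjusted p = 0.0224). Lig1, the ligase that joins the fragments, had 0.44 (standard error 0.12, adjusted p = 0.0769), and all 6 mice lay above the controls. Pole, the catalytic subunit of polymerase epsilon, also had all 6 mice above the controls, with 0.80 (standard error 0.26, adjusted p = 0.127). For Prim1, Pola1, Pold1 and Rpa2, which prime, extend and shield single strands, the estimates were 0.51, 0.26, 0.25 and 0.14.

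In nucleotide supply Rrm2 was called. The small subunit of ribonucleotide reductase had control ratios of -4.15, -4.63, -3.85, -5.02 and -4.62, widely spread, and at 18 µg ran from -4.26 to -2.53 with a median of -3.43. Of the 6 mice 5 lay above every control, and the log2 fold change was 1.21 (2.31-fold, standard error 0.26, adjusted p = 0.0317). At 54 µg Rrm2 had -3.67, -4.40, -4.75, -4.19 and -4.34, of which 1 lay above the controls. Rrm1, the large subunit of the same enzyme, had 0.49 (standard error 0.16, adjusted p = 0.146). Its ratios were -2.94, -3.01, -2.52, -2.76 and -2.78 in controls, ran from -2.86 to -1.89 with a median of -2.33 at 18 µg, were -2.66, -2.52, -2.46, -2.74 and -2.71 at 54 µg and ran from -2.79 to -1.94 with a median of -2.33 at 162 µg. At 18 and 162 µg 5 of 6 mice lay above every control, and at 54 µg 1 of 5 did. Tk1, which salvages thymidine, had 0.78 (standard error 0.20, adjusted p = 0.0631) with all 6 mice above the controls. Dut, which keeps uracil out of DNA, passed the adjusted p with 0.44 (standard error 0.10, adjusted p = 0.0433) under 1.5-fold, and Tyms, which makes thymidylate, had 0.15.

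The estimate furthest from 0 among the 45 genes belonged to Uhrf1. Its brighter probe had control ratios of -4.40, -4.62, -3.49, -4.10 and -4.40, and at 18 µg ran from -3.45 to -2.02 with a median of -2.51, with all 6 mice above the controls. The fold change of Uhrf1 was 1.52 (2.87-fold, standard error 0.31, adjusted p = 0.0258). The second, dimmer probe of Uhrf1 gave 0.36 (adjusted p = 0.348), so the size of the change differed between the probes. Dnmt1, the methyltransferase that Uhrf1 recruits, had 0.31 (standard error 0.13, adjusted p = 0.253). The histone chaperone subunits Chaf1a and Chaf1b had 0.45 and 0.48, and Slbp, which binds histone mRNA, had 0.19.

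Among the regulators E2f8 and Ccne1 were called at 18 µg. E2f8, a repressor of the E2F family, had a value in 4 controls, -3.07, -3.14, -3.61 and -3.06, since 1 spot was marked as an outlier and left out. At 18 µg E2f8 ran from -2.91 to -2.22 with a median of -2.38, with all 6 mice above the controls and a fold change of 0.66 (1.58-fold, standard error 0.13, adjusted p = 0.024). In 4 mice at 54 µg E2f8 had -3.08, -3.39, -2.89 and -2.90, of which 2 lay above the controls. The E2f8 probe was well above background in all 4 controls with a value and in 4 of 6 mice at 18 µg. At 54 µg it was in 3 of 4 mice with a value and at 162 µg in 4 of 5. Ccne1, cyclin E1, had -1.99, -1.91, -1.75, -2.53 and -1.64 in controls and ran from -1.46 to -0.63 with a median of -0.99 at 18 µg, without overlap. The log2 fold change of Ccne1 was 0.82 (1.77-fold, standard error 0.17, adjusted p = 0.0304), and its second probe was not expressed above background. At 54 µg Ccne1 had -1.64, -1.95, -1.40, -1.43 and -1.44 and at 162 µg it ran from -2.01 to -1.0 with a median of -1.56, with 4 mice of each group above the controls. E2f1, an activator, had -1.96, -1.94, -1.70, -2.10 and -1.78 in controls and, with 1 spot left out, ran from -1.85 to -1.13 with a median of -1.64 in 5 mice at 18 µg. Its estimate was 0.48 (standard error 0.18, adjusted p = 0.215), with -1.47, -2.52 and -2.23 in 3 mice at 54 µg and ratios from -2.36 to -1.72 with a median of -2.0 in 5 mice at 162 µg, overlapping the controls. The estimates of E2f2 and E2f7, a further repressor, were 0.04 and 0.38.

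Exo1, an exonuclease of mismatch and break repair, was the called gene of the repair set. It had -3.82, -4.23, -3.72, -3.71 and -3.93 in controls and ran from -3.96 to -2.35 with a median of -2.93 at 18 µg, where 1 mouse lay among the controls and 5 lay above. The fold change of Exo1 was 0.74 (1.67-fold, standard error 0.16, adjusted p = 0.0351). At 54 µg Exo1 had -3.46, -3.75, -3.53, -3.49 and -3.17 and at 162 µg it ran from -4.00 to -2.77 with a median of -3.36, with 4 mice of each group above the controls. Chek1, the checkpoint kinase, had 0.05 (standard error 0.09, adjusted p = 0.859). Brca1 and Clspn were not well above background on any array, and Ccne2 was on 1 control array only, so no single fold is given for these 3 genes, and they enter only counts and medians over the 45 genes or a role.

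**Figure D2:**
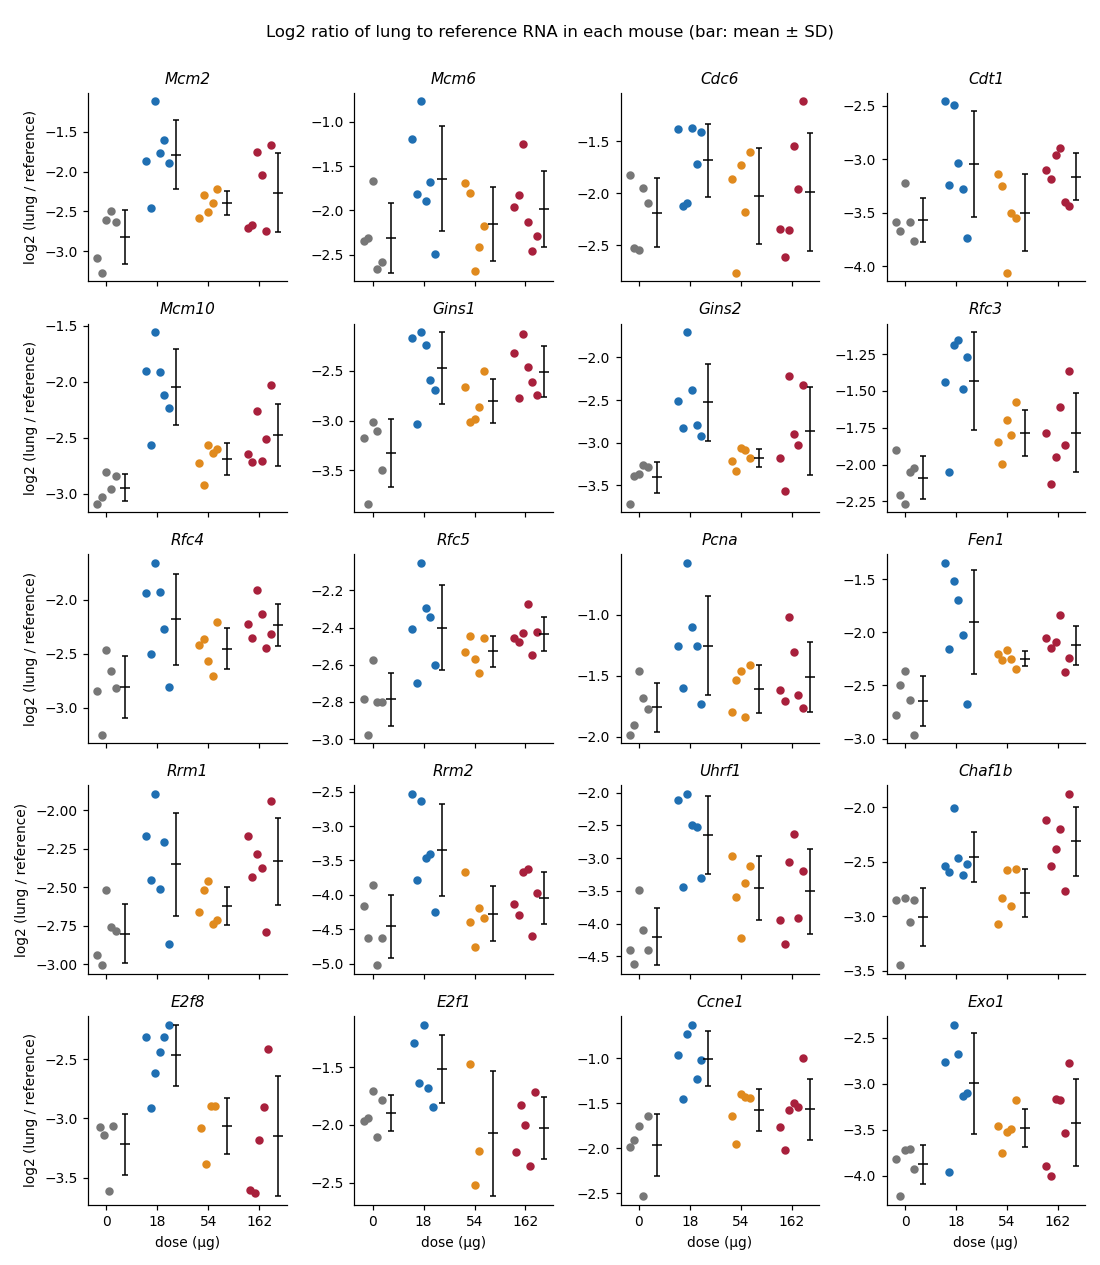
Log2 ratio of lung to reference RNA in each mouse for 20 genes, by dose in µg (0 is vehicle control), with the mean and SD of each group beside its points. The 6 mice at 18 µg lie wholly above the controls for Mcm2, Mcm10, Gins2, Uhrf1, Chaf1b, E2f8 and Ccne1, and overlap them for the others.

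Counted without any model, 12 of the 45 genes had all mice with a value at 18 µg above all controls and 0 had all below. Of all named genes 1.15% had all above, counted only with a value in every mouse of the group. Mcm5, 1 of the 12 genes, had a value in 5 mice and would not pass that stricter count. Of these 12 genes 6 were also called, namely Mcm2, Mcm10, Gins2, Uhrf1, E2f8 and Ccne1. The corresponding count was 2 at 54 µg, Gins1 and Fen1, against 1.2% of all named genes. At 162 µg it was 5, Mcm10, Gins1, Rfc4, Rfc5 and Chaf1b, against 2.92%.

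The number of calls at 18 µg depended on single mice. Leaving out 1 mouse at a time changed the number of called genes to 0 without control 1, 3 without control 4, 2 without control 5, and to 2, 3, 6 and 1 without mice 1, 3, 4 and 5 of the 18 µg group. The median fold change of the 45 genes stayed between 0.42 and 0.53 in these fits. Without slide 7, without normalization, with median centring, or with log ratios scaled to the same spread on every array, 0 genes were called. With the log2 table that the authors deposited 4 were called, Mcm10, Gins1, Uhrf1 and Ccne1, and with controls and 18 µg mice alone 6.

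After loess normalization, fold changes at 18 µg were related to the ratio to the reference over all genes. Among the expressed genes with a control ratio below -3 the median fold change was 0.47 and 16.1% were called higher, and between -3 and -2 these were 0.29 and 7.5%. Between -2 and -1 the median was 0.13 with 1.51% called, whereas the genes with a ratio between 2 and 3 had a median of -0.24. The replication genes had a median of 0.74 with 6 of 11 called below -3, of 0.49 with 5 of 17 called between -3 and -2, and of 0.37 with 1 of 12 called between -2 and -1. Without any gene of the cell cycle lists, the 134 expressed genes below -3 had a median of 0.41 with 11.9% called. The same 5 controls enter both the ratio and the fold change. The SD of the log2 ratios over an array was 1.05 to 1.18 in controls and 0.94 to 1.09 at 18 µg, and with the ratios scaled to 1 spread the median of the 45 genes was 0.37. The part of this shift in the result at 18 µg was not tested.

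**Figure D3:**
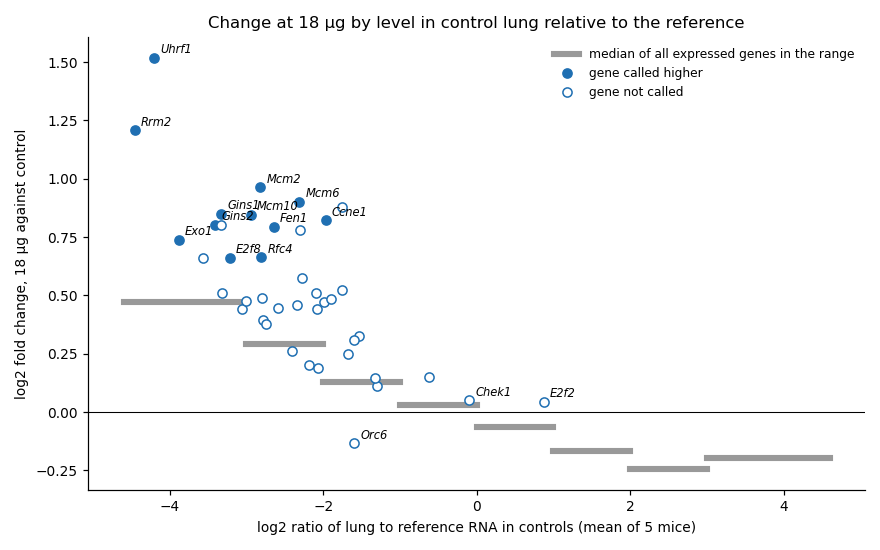
Log2 fold change at 18 µg against the log2 ratio of lung to reference RNA in controls for the 42 expressed genes, filled where called, with bars at the median fold change of all expressed genes in each range of the ratio. The bars fall from 0.47 at the left to -0.20 at the right, and most replication genes lie above the bar of their range.

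The 6 mice at 18 µg differed among themselves. For each mouse the median over the genes of the log2 ratio minus the control mean was taken, and it ran from -0.08 to 0.14 in controls and from 0.31 to 0.90 at 18 µg. Mouse 3 of the 18 µg group had the value 0.90 and was the highest of its group for 23 of 42 genes with a value in all 6 mice. Mouse 2 had 0.31 and was the lowest for 16 of them. At 54 µg the 5 mice lay between 0.12 and 0.23, and at 162 µg between 0.05 and 0.49. The slide was also the day of scanning, and 5 of the 7 slides held a control. Against the control on the same slide the median difference at 18 µg was 0.72, 0.40, 0.92 and 0.44 on slides 1, 2, 4 and 7. At 54 µg it was 0.23, 0.02 and 0.16 on slides 1, 5 and 7, and at 162 µg 0.33, 0.49, -0.05 and 0.13 on slides 2, 4, 5 and 7. Of the 45 genes 31 lay above the control on all 4 shared slides at 18 µg, against 10.6% of all named genes. On the 3 shared slides at 54 µg 16 did, against 16.5%, and on the 4 at 162 µg 10 did, against 13.6%. Since the number of slides differed between the doses, these counts are not set against each other.

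**Figure D4:**
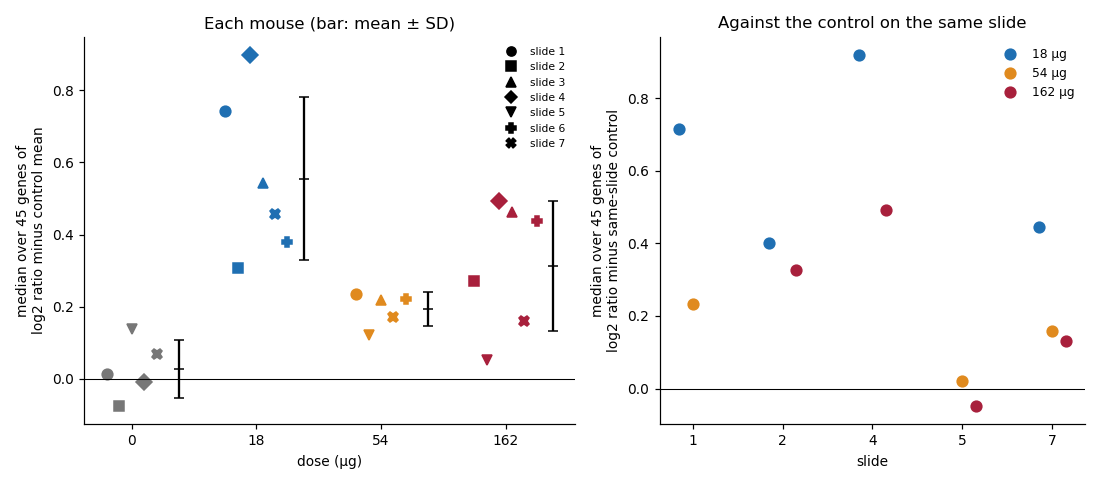
Left, the median over the 45 genes of the log2 ratio minus the control mean in each mouse, by dose and slide, with the mean and SD of each group; right, the median difference from the control on the same slide. The mice at 18 µg range from 0.31 to 0.90, those at 54 µg from 0.12 to 0.23 and those at 162 µg from 0.05 to 0.49, with controls between -0.08 and 0.14.

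At 54 µg 0 of the 45 genes were called, against 0.205% of all named genes called higher and 0.115% called lower. At an unadjusted p under 0.05 limma gave 4 of the 45 genes and 12% of all named genes. The median fold change was 0.16, and 37 of the 45 estimates lay above 0 after loess normalization and after median centring, and 44 without normalization, where the median of all expressed genes was itself 0.13. The estimate furthest from 0 was that of Uhrf1, 0.69 (standard error 0.33, adjusted p = 0.589), with ratios of -2.97, -3.59, -4.22, -3.38 and -3.12 in the 5 mice. Gins1 had -2.66, -3.01, -2.98, -2.86 and -2.50, all above the controls, and an estimate of 0.53 (standard error 0.17, adjusted p = 0.282). For Fen1 the ratios were -2.21, -2.26, -2.17, -2.25 and -2.35, tightly grouped and all above the controls, with 0.46 (standard error 0.17, adjusted p = 0.381). Rrm2 had 0.25 (standard error 0.27, adjusted p = 0.888) and Ccne1 0.22, neither called. The estimates of E2f1, E2f2, E2f7 and E2f8 were -0.06, -0.07, -0.09 and -0.11, and E2f1 had a value in 3 of 5 mice. Orc1 was not well above background in any mouse at this dose.

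At 162 µg 4 of the 45 genes were called higher and 0 lower, against 2.74% and 2.9% of all named genes. The median fold change was 0.30 with 40 of the 45 estimates above 0. With median centring or without normalization 24 and 23 lay above 0, where all expressed genes had medians of -0.18 and -0.21. Genes with a low control ratio were called higher more often at this dose as well. Among expressed genes below -3 the median fold change was 0.19 and 10.9% were called higher. Between -3 and -2 these were 0.13 and 10.3%. The replication genes had medians of 0.49 and 0.34 in these ranges, with 2 of 11 and 2 of 17 called. The part of the control ratio in the result at 162 µg was not tested. Gins1 ran from -2.77 to -2.13 with a median of -2.54, with all 6 mice above the controls and a fold change of 0.86 (1.81-fold, standard error 0.16, adjusted p = 0.00364). Rfc4 ran from -2.45 to -1.91 with a median of -2.27, also above every control, with 0.61 (1.53-fold, standard error 0.15, adjusted p = 0.0243). For Fen1 the ratios ran from -2.37 to -1.83 with a median of -2.12, 5 of 6 mice lay above the controls, and the fold change was 0.59 (1.5-fold, standard error 0.16, adjusted p = 0.0336). Chaf1b, the subunit of the histone chaperone that follows the fork, was called at this dose alone, and its difference between 162 and 18 µg was 0.14 (standard error 0.15, adjusted p = 0.734). Its control ratios were -2.85, -3.45, -2.83, -3.05 and -2.85, and at 162 µg they ran from -2.77 to -1.88 with a median of -2.29, with a fold change of 0.61 (1.53-fold, standard error 0.16, adjusted p = 0.0274) and a second probe that was called as well, at 0.74. At 18 µg Chaf1b ran from -2.62 to -2.0 with a median of -2.53, also above every control, and at 54 µg it had -3.07, -2.83, -2.58, -2.91 and -2.56, of which 3 lay above.

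Other members at 162 µg kept below the threshold. Cdt1 had 0.56 (standard error 0.17, adjusted p = 0.0562), Rfc5 0.34 (standard error 0.10, adjusted p = 0.0515) and Mcm10 0.43 (standard error 0.14, adjusted p = 0.0861). Rrm2 ran from -4.60 to -3.62 with a median of -4.05 with 0.59 (standard error 0.26, adjusted p = 0.228), Uhrf1 from -4.32 to -2.63 with a median of -3.55 with 0.72 (standard error 0.31, adjusted p = 0.219), and E2f8 from -3.63 to -2.42 with a median of -3.18 in 5 mice with 0.01 (standard error 0.13, adjusted p = 0.993). Pcna had 0.23 (standard error 0.14, adjusted p = 0.434), Ccne1 0.30 (standard error 0.17, adjusted p = 0.417) and Cdc6 0.04 (standard error 0.11, adjusted p = 0.907). The count of called genes went to 2 without control 1, control 2 or mouse 6 of the 162 µg group. It went to 1 without control 4, mouse 6 of the 18 µg group or mouse 1 of the 162 µg group. With log ratios scaled to 1 spread, with median centring or without normalization it was 0.

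The doses were also compared with each other, where all 3 share the same controls in the tests above. E2f8 was lower at 162 µg than at 18 µg, with a log2 difference of -0.66 (standard error 0.12, adjusted p = 0.00609), the 1 gene of 45 called, against 1.36% of all named genes called lower and 2.74% called higher. The E2f8 probe was not well above background in every mouse of these 2 groups, with 4 of 6 at 18 µg and 4 of 5 at 162 µg. Dut passed the adjusted p with -0.35 (standard error 0.10, adjusted p = 0.0478) under 1.5-fold. The median difference over the 45 genes was -0.22 with 37 below 0, and -0.16 with 34 below 0 after median centring and -0.02 with 24 below 0 without normalization. Mcm2 had -0.50 (standard error 0.15, adjusted p = 0.0681), Ccne1 -0.53 (standard error 0.16, adjusted p = 0.0801), Uhrf1 -0.80 (standard error 0.29, adjusted p = 0.15) and Rrm2 -0.62 (standard error 0.24, adjusted p = 0.189), none of them called. Gins1 differed by 0.01 (standard error 0.15, adjusted p = 0.984), Rfc4 by -0.05 (standard error 0.14, adjusted p = 0.916) and Rrm1 by 0.00 (standard error 0.15, adjusted p = 0.997). The count was 0 without mouse 3 of the 18 µg group, 2 without its mouse 6, and 2 and 3 without mice 4 and 6 of the 162 µg group.

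Between 54 and 18 µg 0 genes were called, against 0.015% of all named genes called higher and 0.00999% called lower, and 23 of the 45 genes had an unadjusted p under 0.05 in limma, as did 13.2% of all named genes. The median difference was -0.32 with 43 of 45 estimates below 0, but -0.05 with 23 below 0 after median centring and 0.33 with 4 below 0 without normalization. Rrm2 had -0.95 (standard error 0.26, adjusted p = 0.208). Without control 2 or without mouse 6 of the 162 µg group 1 gene was called. Between 162 and 54 µg 0 were called, as were 0% of all named genes, and 2 of the 45 genes had an unadjusted p under 0.05 in limma, as did 2135 of the 20018 named genes. In order of the estimates after loess normalization, 18 µg gave the highest fold change for 37 of the 45 genes, 162 µg for 8 and 54 µg for 0, and 34 genes had all 3 estimates above 0. Between doses only the differences of E2f8 and Dut from 18 to 162 µg passed the adjusted p, so for the other genes the order of the doses was not resolved beyond the error.

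By role, the 4 helicase activation genes had median fold changes of 0.83, 0.25 and 0.46 at 18, 54 and 162 µg. All 4 estimates lay above 0 at each dose, also with median centring, without normalization, with scaled log ratios, with the Cy5 channel alone and with the deposited table. The medians of other roles changed sign in some of these settings. The 10 origin licensing genes had medians of 0.52, 0.24 and 0.33, of which the first was -0.07 without normalization and the last -0.01 with median centring and -0.06 without normalization. The 4 clamp and clamp loader genes had 0.52, 0.22 and 0.29, of which the first was -0.04 without normalization and the last -0.01 with median centring and -0.02 without normalization. For the 7 genes of polymerases, primase and ligation the medians were 0.44, 0.14 and 0.10, turning to -0.16 at 18 µg without normalization and to -0.21 and -0.23 at 162 µg with median centring and without normalization. The medians of the 5 nucleotide supply genes were 0.49, 0.23 and 0.36, the first -0.08 without normalization. The 5 chromatin and methylation genes had 0.45, 0.14 and 0.33, the first -0.12 without normalization. The 6 E2F and cyclin E genes had 0.43 at 18 µg, above 0 in each of these settings, but -0.07 and 0.03 at the higher doses, where the sign changed between settings. The 4 repair and checkpoint genes had 0.30, 0.10 and 0.15, and the second was -0.03 with the Cy5 channel alone. Differences between roles were not tested.

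Other genes of DNA replication and S phase, 65 in number, had median fold changes of 0.14, 0.05 and 0.13 at the 3 doses, and at 18 and 162 µg these were -0.10 and -0.13 with median centring and -0.26 and -0.15 without normalization. Of these genes 5 were called higher at 18 µg and 0 lower. At 54 and 162 µg 0 were called, where limma gave 14 and 26 with an unadjusted p under 0.05, as for 12% and 24.4% of all named genes. At 162 µg 8 of the 65 genes passed the adjusted p under 1.5-fold, and 1782 of the 20018 named genes passed it at any fold. The genes called at 18 µg included Ccna2, cyclin A2, at 0.94 (standard error 0.21, adjusted p = 0.0371), the histone chaperone Asf1b at 0.87, the clamp loader subunit Chtf18 at 0.65 and the polymerase delta subunit Pold2 at 0.61. With the deposited log2 values 1 gene of this list was called, and with median centring, without normalization or with scaled log ratios 0 were. Ccna2 was also called lower at 162 than at 18 µg, with a log2 difference of -0.80 (standard error 0.20, adjusted p = 0.0261). In the same comparison 1 gene of this list, Tfdp2, was called higher, by 0.86. Of all named genes 1.36% were called lower and 2.74% higher between these doses.

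Mitosis follows S phase in the cycle, and 35 of its genes were measured. All 35 estimates lay above 0 at 18 µg, with a median of 0.49, whereas 27 did with median centring and 17 without normalization, where the median was -0.01. Cdk1, Tpx2 and Cdca8 were called higher at 18 µg, and 0 mitosis genes were called with any of the 5 other normalizations. At 54 and 162 µg the mitosis medians were -0.08 and 0.09 and changed sign between settings, with 0 called, where limma gave 2 and 1 with an unadjusted p under 0.05, against the same 12% and 24.4%. Mki67, the common marker of dividing cells, had 0.85 (standard error 0.23, adjusted p = 0.0752) at 18 µg.

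Markers of lung cell types were measured beside these genes. All 9 ciliated cell markers had estimates below 0 at each dose, and at least 8 of 9 did in each of the 5 other normalizations, with 0 called at 18 and 54 µg, where limma gave 6 and 3 with an unadjusted p under 0.05, against 19% and 12% of all named genes, and 4 called lower at 162 µg, Dnaic1, Rsph1, Ccdc39 and Tppp3. The median of these markers minus the control mean ran from -1.66 to 0.19 over the mice at 18 µg, from -1.03 to -0.09 at 54 µg and from -1.84 to -0.11 at 162 µg, against -0.25 to 0.22 in controls. The 4 club cell markers also had estimates below 0 at each dose, except for 1 marker at 18 µg and 1 at 162 µg with scaled log ratios, and Aldh1a1 was called lower at 18 µg and Cyp2f2 at 162 µg. Their median ran from -1.55 to 0.70 over the mice at 18 µg and from -0.53 to 0.79 in controls. For 7 alveolar macrophage markers the lowest and highest mice had 0.07 and 0.54 at 18 µg, -0.04 and 0.83 at 54 µg, and 0.20 and 0.87 at 162 µg, with controls between -0.27 and 0.28, and Chil3 was called higher at 18 µg and Marco at 162 µg. The 6 B cell markers ran from -0.32 to 0.54 at 18 µg and from -1.29 to -0.34 at 162 µg, with controls between -0.31 and 0.36, and Ms4a1 and Cr2 were called lower at 162 µg. The 10 markers of T and NK cells ran from -0.23 to 0.27 at 18 µg, from -0.66 to -0.10 at 54 µg and from -0.73 to -0.14 at 162 µg, with controls between -0.24 and 0.18, and Lck and Gzma were called lower at 162 µg. Pdpn, of 5 markers of type I cells, was called higher at 162 µg, and Kdr, of 8 endothelial markers, at 18 µg. The 10 neutrophil markers ran from -0.66 to 1.80 in controls, where control 2 gave 1.80 and the next highest control -0.31. They ran from -0.42 to 0.02 at 18 µg and from -0.30 to 0.29 at 54 µg. At 162 µg they ran from -0.40 to 1.83, where mouse 2 gave 1.83 and the next highest mouse 0.42. At each dose 0 were called. There limma gave 2, 0 and 2 with an unadjusted p under 0.05, against 19%, 12% and 24.4% of all named genes. The single markers named here were called after loess normalization. The part of these cell types in the results was not tested.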

How the data were processed

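Lung RNA of 22 mice was measured on 2-colour Agilent arrays, 5 controls, 6 mice at 18 µg, 5 at 54 µg and 6 at 162 µg. The authors deposited, for every spot and channel, the median pixel intensity, neither background subtracted nor normalized, and the file headers name Feature Extraction 10.7.3.1. The authors also deposited a table of log2 ratios, whose normalization is not given in the sources used here. It served as an alternative.

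Spots marked as outliers were left out. Log2(Cy5/Cy3) was loess-normalized array by array (span 0.3) in limma 3.58.1 under R 4.3.3, and replicate spots were reduced to their median, giving 55681 probes. RefSeq accessions named 26413 probes. The limma model held dose and slide (7 slides), leaving 12 residual degrees of freedom, and Benjamini-Hochberg adjustment ran over all probes. A probe was expressed where Cy5 exceeded the mean plus 3 SD, both trimmed by 5%, of 308 negative control spots in 80% or more of a group's arrays. Array number limits the precision, with a median standard error of 0.156 over the genes at 18 and 162 µg. Per array, Cy5 signal divided by local background had medians of 1.52 to 2.05 (controls) and 1.24 to 2.11 (18 µg). These medians were 1.37 to 2.07 (54 µg) and 1.18 to 2.5 (162 µg). The middle value of each group was 2 (controls), 1.44 (18 µg), 1.49 (54 µg) and 1.72 (162 µg), lowest at 18 µg. On control arrays 70.4% to 77.5% of probes exceeded background, and on 18 µg arrays 56.8% to 77.9%. The part of this difference in signal in the fold changes was not tested.

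The limma fit was run on simulated normalized log ratios with known changes and independent noise, so this run did not test the normalization. The values of 1 gene of the other replication list and of 1 cell type marker are not reported here. The genes, the other lists and the rules for naming genes were chosen with earlier results of these data known. Values in all groups were given for genes called in any comparison, for the 10 with the smallest p at 18 or 162 µg, and for Pcna, Mcm2, E2f1, Ccne1, Cdc6 and Rrm2. Alternatives comprised other background corrections and normalizations, other slide terms, filters and thresholds, and leaving out each mouse. Scaling of log ratios, leaving out slides, and the other normalizations for the roles and other lists were added after seeing the data.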

Additional observations from a re-analysis of the deposited data

Results flagged for a closer look

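Within groups, 79 sets of values of the named genes were searched for a mouse that lay apart from the rest of its group. In these 79 sets 4 such values were found. Chance alone gives about 1 in 20 sets, so the count was near that of chance. Control 1 had a log2 ratio of -3.71 for Gins2, and the nearest control was at -3.39. Control 4 had -3.61 for E2f8 among 4 controls with a value, the nearest at -3.14. For Chaf1b, mouse 3 of the 18 µg group lay highest at -2.0, with the nearest at -2.47. For Rfc3, mouse 2 of the 18 µg group lay lowest at -2.05, with the nearest at -1.49.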

How the results depend on the processing

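Called genes kept their direction in all 646 values that the alternatives gave for the 17 called comparisons, and 429 of these kept the call. Other expression filters, no fold threshold and quantile normalization left the estimates as reported, so there the direction could not change. The alternatives gave 3040 values for the 20 named genes in the comparisons with control and in 162 against 18 µg, called or not. Where a comparison was not called as reported, 106 of these values had the other sign and 27 passed the threshold. The number called at 18 µg was 0 with median centring, without normalization, with scaled log ratios and without slide 7, 4 with the deposited log2 table, 6 with only the compared groups and 21 without slides 3 and 6, which hold no control. At 162 µg it was 0 with median centring, without normalization and with scaled log ratios, 1 with only the compared groups, and 2 with the Cy5 channel alone, without a slide term, without slides 3 and 6 or without slide 7. For 162 against 18 µg it was 0 with normexp, median centring, no normalization, the Cy5 channel alone or no slide term, 2 without a fold threshold and 5 without slides 3 and 6. The median fold change at 18 µg was 0.0874 with median centring and reversed to -0.0748 without normalization. At 162 µg it was 0.0227 and 0.00446. At 54 µg it was 0.32 without normalization, 0.25 with Cy5 alone, 0.21 with the deposited table and 0.0925 with scaled log ratios. The causes of these differences were not tested.

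Leaving out each mouse in turn gave 0 to 16 genes called at 18 µg, 0 to 0 at 54 µg, 1 to 6 at 162 µg, 0 to 3 for 162 against 18 µg, 0 to 1 for 54 against 18 µg and 0 to 0 for 162 against 54 µg. The median fold change ranged from 0.42 to 0.53 at 18 µg, from 0.11 to 0.23 at 54 µg and from 0.20 to 0.38 at 162 µg. Quantile normalization of average intensities changes no log ratio by construction. Samples share only a number across groups. Their deviations correlated by a median of 0.17 over 31 pairs of the same number, of which 20 were over 0.1. Over 150 pairs of different groups and other numbers the median was -0.06, and over 24 pairs on the same slide it was 0.26. Some pairs of the same number also shared a slide, so number and slide cannot be told apart there. The replicate block in place of slide gave 14, 0 and 4 called genes at 18, 54 and 162 µg. With slide as a random block it gave 13, 0 and 3. The median Cy5 signal was at most 2.5 times local background on these arrays, which limits what dim probes can show.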

Other observations

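Genes that hold the cell cycle back were measured on the same arrays. Of 19 cell cycle inhibitors and quiescence genes, 2 were called higher at 162 µg, and 0 at 18 or 54 µg, where limma gave 5 and 2 with an unadjusted p under 0.05, beside 19% and 12% of all named genes. With median centring 1 was called at 162 µg and without normalization 0. For Cdkn1a, the p53-induced inhibitor of cyclin-dependent kinases, the mean log2 ratio in controls was -0.84 with an SD of 0.68. It was -0.45 at 18 µg (SD 0.41), 0.03 at 54 µg (SD 0.78) and 1.20 at 162 µg (SD 0.61). In limma, Cdkn1a differed from controls at 162 µg by 1.74 (SE 0.31) with an adjusted p of 0.00294, and Cdkn2b, an inhibitor of the cyclin D kinases, by 0.88 (SE 0.18) with an adjusted p of 0.00681. Between 162 and 18 µg Cdkn1a was higher by 1.52 (adjusted p = 0.00558), Cdkn2b by 0.81 (adjusted p = 0.00908) and Cdkn1c, another inhibitor, by 1.14 (adjusted p = 0.0168). Tfdp2, a dimer partner of E2F proteins and a gene of the other replication list, was higher at 162 than at 18 µg by 0.86 (adjusted p = 0.00207).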
